A study of Arabidopsis thaliana with 4 samples.

Results

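The alternative respiratory chain of plant mitochondria was followed in 10 Arabidopsis thaliana genes, in globular-stage embryos of the serrate mutant se-1 and of wild type. The genes were the alternative oxidases AOX1A, AOX1B, AOX1C and AOX1D, the type II NAD(P)H dehydrogenases NDA1, NDA2, NDB2, NDB3 and NDB4, and the uncoupling protein UCP1 (annotated as PUMP1). They were taken by gene identifier from tables of 27880 rows, and the choice was made with their se-1 and wild-type values known. Their differences between the genotypes are therefore given as a description, without a test.

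The study compared 2 libraries of se-1 with 2 of wild type, all in the Col (Columbia) background, from embryos of 32 to 64 cells. SERRATE is a zinc-finger protein of microRNA processing and pre-mRNA splicing; the allele used, se-1, reduces its function in part, and no other allele was included. Both genotypes were cold-treated at 4 °C for no less than 4 days, then raised in a photoperiod of 16 h at 22 °C, and the labels do not give the number of embryos per library. RNA was amplified from its poly(A) tail before sequencing. The labels call the libraries replicates without naming separate plants or harvests, so the errors hold for these libraries only. The SD is the spread between the 2 libraries of a genotype, and the standard errors of the fit also draw on the spread of other genes.

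In the main respiratory chain electrons pass from complex I and complex II through ubiquinone, complex III and cytochrome c to complex IV, and the pumped protons drive the ATP synthase, complex V. Alternative oxidase takes electrons from reduced ubiquinone straight to oxygen and pumps no protons. The type II dehydrogenases oxidise NADH or NADPH without pumping protons, NDA proteins on the matrix side of the inner membrane and NDB proteins on the outer side. Uncoupling proteins belong to the carrier family of the inner membrane and can let protons back into the matrix. In Arabidopsis AOX1A is the form best known for its induction when the main chain is inhibited.

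The sequences upstream of NDB4 and AOX1A are shown because these genes had the largest differences between the genotypes of the 10. They are the 250 bases before the annotated gene start in RefSeq TAIR10.1, 5′ to 3′ on the gene's strand, and capitals mark the W-box, the core site of WRKY factors, searched as TTGACC and TTGACT on both strands.
NDB4 (chr2:8955832-8956081, minus strand): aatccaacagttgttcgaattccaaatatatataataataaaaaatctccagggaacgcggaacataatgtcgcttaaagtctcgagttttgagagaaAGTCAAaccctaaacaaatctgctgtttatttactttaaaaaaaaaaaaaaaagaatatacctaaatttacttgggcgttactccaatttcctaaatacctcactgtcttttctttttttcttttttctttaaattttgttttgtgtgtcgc
AOX1A (chr3:7906271-7906520, plus strand): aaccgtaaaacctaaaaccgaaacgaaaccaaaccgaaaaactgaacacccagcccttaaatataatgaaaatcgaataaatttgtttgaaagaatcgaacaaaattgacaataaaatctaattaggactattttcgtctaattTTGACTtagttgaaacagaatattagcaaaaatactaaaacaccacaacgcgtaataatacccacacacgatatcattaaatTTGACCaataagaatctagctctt
The W-box is a frequent word. Within 500 bases upstream it was found in 7 of the 10 genes and in 45.2% of 27443 protein-coding genes.

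The mitochondrial dysfunction motif is bound by NAC transcription factors such as ANAC013 and ANAC017, which act in signalling from mitochondria to the nucleus. It was searched within 500 bases upstream as CTTGNNNNNCAAG and CTTGNNNNNCACG on both strands and was found in 2.09% of the 27443 genes. It was found in 4 of the 10 genes, and the matches are shown in capitals with 8 bases on each side, in RefSeq TAIR10.1, read on the strand that holds the motif.
NDB2 (chr4:2572340-2572368, plus strand): cgatctggCTTGGCCACCAAGattgtttg
NDA1 (chr1:2204026-2204054, plus strand): tgtcgtttCTTGCGCATCAAGttctgctg
NDB3 (chr4:11439612-11439640, plus strand): tggtttgaCTTGACGGCCACGgcaagagt
AOX1B (chr3:7903971-7903999, minus strand): ctaaaagaCTTGTAGCACACGaaaagaca
These letters were not found in the windows of the other 6, NDB4 and AOX1A among them, and bases after the annotated gene start were not searched. Of the retrograde genes named below, ANAC013 and AT12CYS-2 also had no match, and UPOX and HSP23.5 had 1 each. The NDB3 match lies within the annotated non-coding gene AT4G07010. The G-box, CACGTG, was found in none of the 10 and in 9.35% of all genes. The site II element, TGGGCC or TGGGCT, known from promoters of respiratory chain genes, was found upstream of AOX1C, NDA1 and NDA2 and in 26.6% of all genes. A match of this kind describes the letters only.

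Between 18580516 and 20882004 reads were counted per library. Levels are counts per 1000000 reads (CPM) on library totals scaled by TMM, as mean ± SD of 2 libraries. SERRATE itself read 69.4 and 71.1 CPM in the mutant libraries against 96.7 and 98.6 CPM in the wild-type ones, which is no check of the labels because the allele retains its transcript. All 8 embryo markers examined, among them WOX2, WOX8 and LEC1, had counts in both genotypes. Summed, they reached 1285 to 1301 CPM in se-1 against 1388 to 1467 CPM in wild type. Of the 8, 4 were higher and 2 lower in se-1, beside 36.2% and 36% of all tested genes (edgeR). WOX8 and ATML1 were 2.89-fold and 1.77-fold lower, and WOX2 and DRN were 2.56-fold and 3.35-fold higher. After correction for transcript length ATML1 stood at -0.037 on the log2 scale and did not pass (adjusted p = 0.709, edgeR). LEC1 passed only there, at -0.417 (adjusted p = 0.00036, edgeR), and WOX8, WOX2 and DRN stood at -1.92, 1.10 and 1.47. Markers of the tissues around the embryo were also present. The 9 endosperm markers summed to 89.8 to 90.1 CPM in se-1 against 103.0 to 110.4 CPM in wild type, and IKU2 had no count in se-1. The 9 seed coat markers, all with counts in both genotypes, summed to 205.5 to 208.7 CPM in se-1 against 143.7 to 156.1 CPM in wild type. In each of the endosperm and seed coat lists as many markers were higher as lower in se-1 (3 and 3 of 7 tested, 4 and 4 of 9 tested, edgeR), beside 36.2% higher and 36% lower over all tested genes. Single markers differed widely in both directions. The log2 fold changes were 2.90 for PHE1, -2.57 for FIS2, 1.80 for TT10 and -1.91 for MUM2. After correction for transcript length they were 2.44, -2.27, 1.85 and -1.61. The part of these tissues in the values below was not tested. The labels name no batch, so any other way in which the mutant and wild-type material differed cannot be told apart from genotype.

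NDB4 and AOX1A stood far higher in se-1 than in wild type, NDA1 stood higher and NDA2 lower by smaller factors, and NDB2 and UCP1 had overlapping genotypes. The other members, AOX1B, AOX1C, AOX1D and NDB3, were below 1 CPM in every library. Counts were high enough to fit 7 of the 10 genes. Of these 7, the libraries of the genotypes did not overlap in 5, a pattern that 85.5% of all 18714 genes tested shared. A fitted difference of at least 2-fold was seen in 2, both higher in se-1, against 24.7% of all tested genes in either direction, 14.8% higher and 9.93% lower. These genes were chosen on this contrast, so nothing is read from the shares. In whole-embryo RNA, fewer cells of a type and less RNA per cell cannot be told apart.

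**Figure D1:**
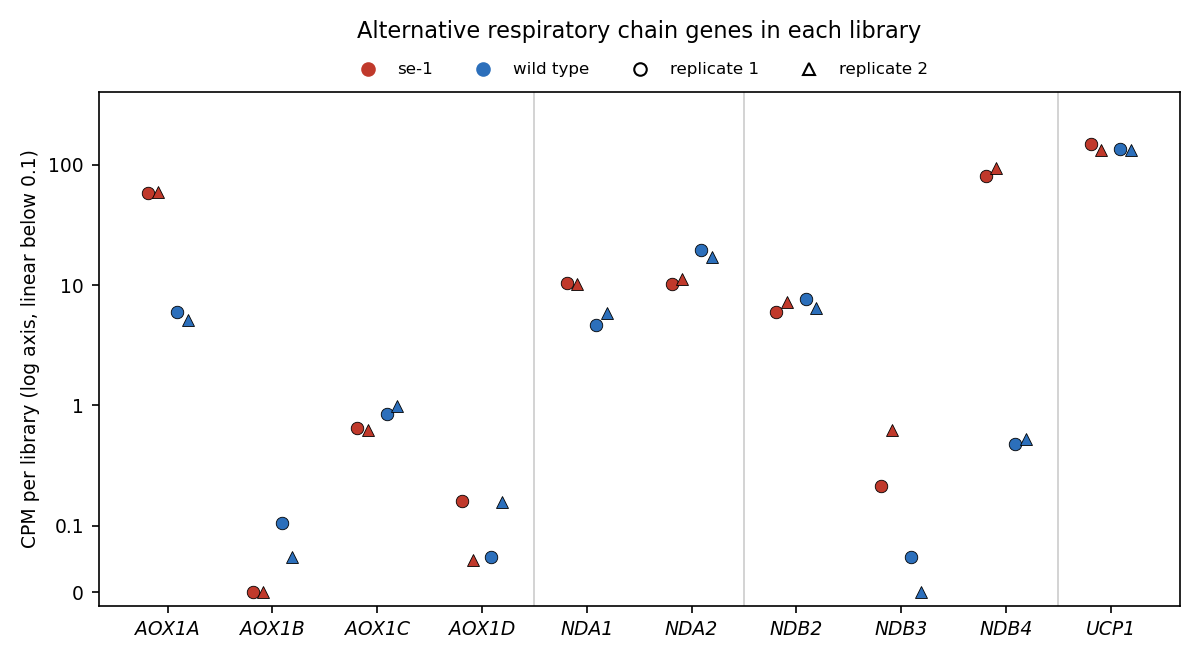
CPM of each gene in each library, on a logarithmic axis that is linear below 0.1 CPM; red marks se-1, blue wild type, circles replicate 1 and triangles replicate 2. NDB4 and AOX1A show the widest gaps between the genotypes, and UCP1 lies at 132 to 149.6 CPM in all 4 libraries.

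Among the oxidases, AOX1A (AT3G22370, chr3:7906521-7908746, plus strand) accounted for most counts. Its libraries held 1083 and 1244 counts in se-1 and 114 and 97 in wild type, or 58.0 and 59.6 CPM against 6.01 and 5.07 CPM. Both se-1 libraries lay well above both wild-type libraries, and replicates of a genotype lay close together. The fitted level in se-1 was 10.6-fold that of wild type (log2 fold change 3.41, standard error 0.11), which put AOX1A at rank 204 from the top among the 18714 fitted genes. Among 18529 genes with an annotated length, its log2 fold change after correction for transcript length was 3.40.

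AOX1B (AT3G22360) lies just upstream of AOX1A on the same strand and did not share its difference. It had no count in either se-1 library and 2 and 1 counts in wild type, too few for a ratio. AOX1C (AT3G27620) had 12 and 13 counts in se-1 and 16 and 19 in wild type, or 0.633 ± 0.0137 against 0.918 ± 0.107 CPM. Its libraries did not overlap, but its summed counts gave a ratio of 0.688 with an exact 95% interval of 0.395 to 1.18, which includes equality. AOX1D (AT1G32350) had 3 and 1 counts in se-1 and 1 and 3 in wild type (ratio 0.963, interval 0.179 to 5.17), so no difference was detectable at this depth. These intervals cover counting error only. AOX2 (AT5G64210), outside the 10 genes, had 1 count in se-1 and 2 in wild type.

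Levels of different genes were set beside each other as CPM per kb of annotated exon. On this scale the 5 AOX genes summed to 33.9 ± 0.622 in se-1 and 4.00 ± 0.277 in wild type, a ratio of 8.48. AOX1A made up 98.4% ± 0.134 of the sum in se-1 and 78.5% ± 3.92 in wild type. AOX1C made up 1.39% ± 0.0559 in se-1 and 17.18% ± 3.18 in wild type, while its own level differed far less. Reads of closely related copies could be misplaced, but of all 30-base words in the exons only 0.425% for AOX1A, 3.5% for AOX1B, 3.58% for AOX1C and 0.695% for AOX1D occur elsewhere in the nuclear genome.

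**Figure D2:**
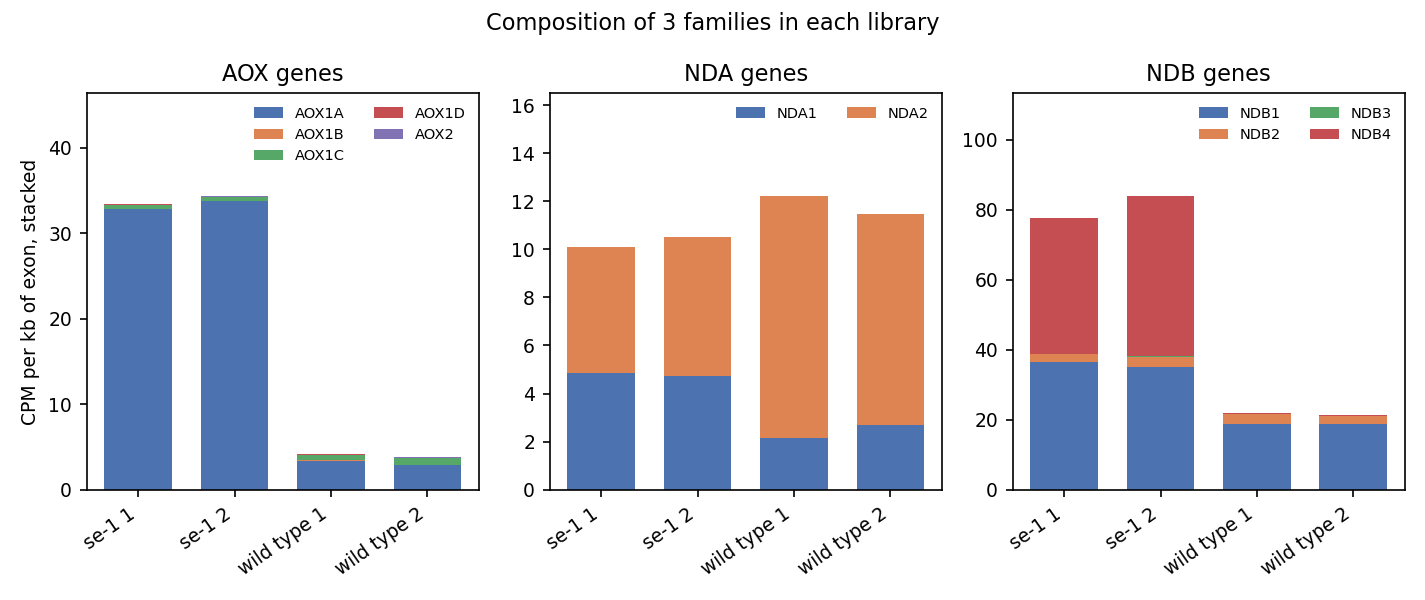
Level in CPM per kb of exon, stacked by gene, for the AOX, NDA and NDB families in each of the 4 libraries; each panel has its own axis from 0, and AOX2 and NDB1 complete their families. The AOX bar is mostly AOX1A, NDA2 exceeds NDA1 most clearly in wild type, and NDB4 makes up 52.2% of the NDB bar in se-1 and 1.11% in wild type on average.

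The matrix-side dehydrogenases NDA1 and NDA2 differed between the genotypes in opposite directions. NDA1 (AT1G07180), known in Arabidopsis as a light-dependent gene, had 196 and 214 counts in se-1 and 88 and 112 in wild type, or 10.5 and 10.2 CPM against 4.64 and 5.86 CPM. NDA2 (AT2G29990) had 190 and 234 counts in se-1 and 371 and 325 in wild type, or 10.2 and 11.2 CPM against 19.5 and 17.0 CPM. For each gene every se-1 library lay on 1 side of every wild-type library. NDA1 was 1.98-fold higher in se-1 (log2 fold change 0.98, standard error 0.14) and NDA2 1.71-fold lower (-0.77, standard error 0.11), and after length correction the log2 values were 1.07 and -0.76.

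The balance of the pair thus differed more than their sum. Per kb of exon NDA2 was 4.71 and 3.24 times NDA1 in the wild-type libraries and 1.08 and 1.22 times NDA1 in the se-1 libraries. NDA1 made up 20.5% ± 4.29 of the NDA sum in wild type and 46.5% ± 2.11 in se-1. The sum of both was 10.3 ± 0.297 in se-1 and 11.8 ± 0.53 CPM per kb in wild type.

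Among the outer-side dehydrogenases, NDB4 (AT2G20800, chr2:8953057-8955831, minus strand) had the largest difference of the 10 genes. It had 1509 and 1975 counts in se-1 and 9 and 10 in wild type, or 80.8 and 94.6 CPM against 0.474 and 0.523 CPM. The summed counts gave a ratio of 177 with an exact 95% interval of 113 to 294, and the fitted log2 fold change was 7.44 with a standard error of 0.17, or 7.49 after length correction. The 2 genotypes lay far apart, and the gene went from percentile 2.42 of level per kb among tested genes in wild type to percentile 83.3 in se-1. These percentiles leave out rows below the count filter, which NDB4 passed only through its se-1 libraries. The wild-type percentile of NDB4 thus depends on the filter. No 30-base word of the NDB4 exons occurs elsewhere in the nuclear genome, and no other annotated exon overlaps them.

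NDB2 (AT4G05020), in Arabidopsis a calcium-stimulated NADH dehydrogenase often induced together with AOX1A, did not separate the genotypes. It had 111 and 151 counts in se-1 and 145 and 122 in wild type, or 5.94 and 7.24 CPM against 7.64 and 6.38 CPM. The libraries overlapped, and the fitted log2 fold change was -0.08 with a standard error of 0.15. Its sign was not stable. It was 0.185 after length correction, 0.053 without se-1 replicate 1 and 0.048 without wild type replicate 1. NDB3 (AT4G21490) was near the detection limit, with 4 and 13 counts in se-1 and 1 and 0 in wild type. The ratio of its summed counts was 16.4, with a wide interval of 2.57 to 684.5, and 101 bases of its exons are shared with the non-coding gene AT4G07010 on the same strand.

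The order of the NDB genes changed as well. Per kb of exon NDB2 was 13.05 and 9.89 times NDB4 in the wild-type libraries, whereas NDB4 was 16.8 and 16.1 times NDB2 in the se-1 libraries. With NDB1 (AT4G28220), a calcium-dependent NADPH dehydrogenase outside the 10 genes, the family summed to 80.8 ± 4.30 CPM per kb in se-1 and 21.7 ± 0.389 in wild type. NDB4 made up 52.2% ± 3.07 of this sum in se-1 and 1.11% ± 0.0969 in wild type. NDB1 remained abundant, at 44.4% ± 3.5 of the sum in se-1 and 86.2% ± 1.36 in wild type.

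UCP1 (AT3G54110) was the most abundant of the 10 genes in both genotypes. Its libraries stood at 149.6 and 132.0 CPM in se-1 and at 134.9 and 132.0 CPM in wild type, and the genotypes overlapped. The log2 fold change was 0.08 with a standard error of 0.083, and it was -0.098 after length correction and -0.009 without se-1 replicate 1. Of its exon length, 6.3% is shared with AT3G54120 on the opposite strand, and the strand setting of the counting is not given in the sources used here.

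In wild type the levels per kb ran from UCP1 at 98.5 ± 1.51 through NDA2 at 9.41 ± 0.927 to AOX1A at 3.14 ± 0.374, NDB2 at 2.74 ± 0.347 and NDA1 at 2.42 ± 0.398. Of the last 3, NDB2 overlapped with both AOX1A and NDA1, while the AOX1A libraries (3.40 and 2.88) lay above the NDA1 libraries (2.14 and 2.70). With 2 libraries the order of these 3 is uncertain. Below them stood AOX1C at 0.682 ± 0.0793 and NDB4 at 0.240 ± 0.0167, and the other 3 were under 0.1. In se-1 UCP1 stood at 104 ± 9.16, NDB4 at 42.3 ± 4.72 and AOX1A at 33.3 ± 0.656, followed by NDA2 at 5.51 ± 0.38, NDA1 at 4.78 ± 0.0774 and NDB2 at 2.57 ± 0.357. NDB4 and AOX1A thus stood directly below UCP1, and UCP1 exceeded AOX1A by 3.36 and 2.88 times in the se-1 libraries against 29.2 and 33.9 times in the wild-type libraries. AOX1C at 0.470 ± 0.0102 and NDB3 at 0.200 ± 0.138 came next in se-1, above AOX1D and the uncounted AOX1B.

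**Figure D3:**
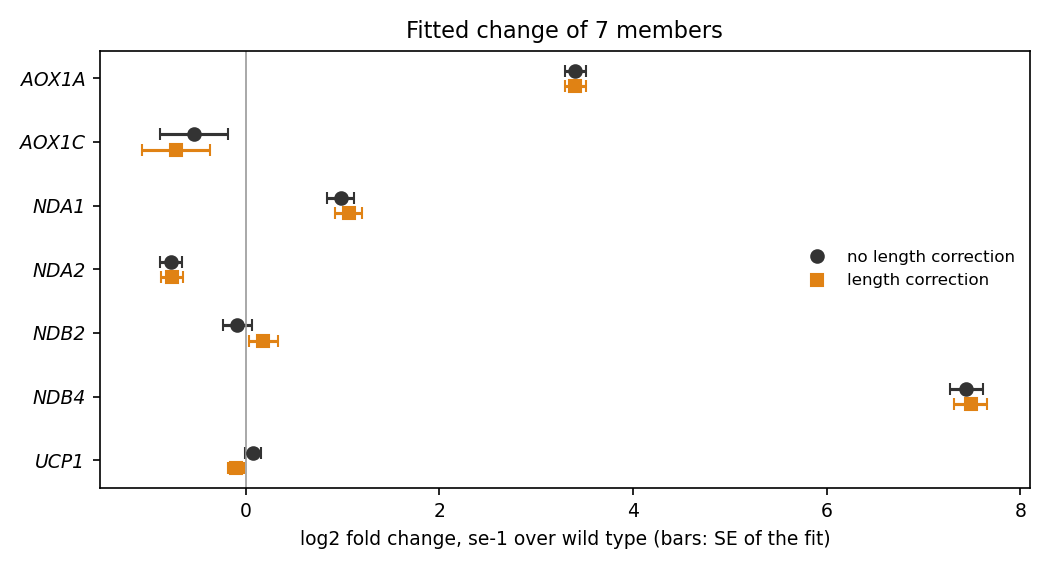
Fitted log2 fold change of se-1 over wild type for the 7 genes with enough counts, without (circles) and with (squares) correction for transcript length; bars are standard errors. NDB4 lies near 7.4 and AOX1A near 3.4 in both, and NDB2 and UCP1 lie near 0 with a sign that depends on the correction.

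Transcript length moved with the genotype difference across the series. Spearman's rho between log2 fold change and exon length was -0.43 across 18529 genes, which are not independent replicates. The 7 fitted members have exon lengths of 1346 to 2562 nt, and the median difference of genes of such lengths was 0.28 on the log2 scale between 1000 and 1500 nt, 0.08 between 1500 and 2000 nt, -0.12 between 2000 and 2500 nt and -0.27 between 2500 and 3000 nt, where NDB2 lies. NDB4, at 2076 nt, and AOX1A, at 1764 nt, lie where this trend is small.

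Genes near NDB4 and AOX1A on the chromosome did not share their differences in size. Of the 10 nearest tested genes around NDB4, 3 were higher and 3 lower in se-1 (edgeR), with log2 fold changes from -0.56 to 2.24. Around AOX1A 3 were higher and 5 lower, from -2.18 to 0.76. Over all tested genes 36.2% were higher and 36% lower, so the counts around NDB4 lie near those shares. The genes whose centred log2 CPM over the 4 libraries lay nearest to that of NDB4 were NAC085 (AT5G14490), a NAC transcription factor, at a Euclidean distance of 0.603, FRO3 (AT1G23020), a mitochondrial ferric reductase, at 0.777, and AT1G47395, annotated as an uncharacterized protein, at 0.972. In wild type they had 1, 17 and 4 counts and in se-1 797, 1885 and 2358. With 2 libraries per genotype, likeness of this kind reflects mainly a similar difference between the genotypes.

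The lists of other genes below were also chosen with earlier results of these data known, so their calls and shares are given as a description. The first holds 9 further genes of the alternative pathway, tested in the fit over all 18714 genes with edgeR's quasi-likelihood test and Benjamini-Hochberg adjustment. Of the 7 with enough counts, 3 rose and 2 fell, while 72.3% of all tested genes changed, 36.2% higher and 36% lower. Their median log2 fold change was -0.13, beside 0.004 for all tested genes. NDB1 rose from 52.0 ± 0.114 to 99.3 ± 2.55 CPM (log2 fold change 0.93, standard error 0.081, adjusted p = 6.9e-09, edgeR). The dicarboxylate carriers DIC1 (AT2G22500) and DIC2 (AT4G24570), relatives of the uncoupling proteins, rose by 0.54 and 1.17 on the log2 scale (adjusted p = 2.7e-05 and 6.6e-10, edgeR), DIC2 from 106 ± 7.59 to 238 ± 14.4 CPM. After length correction the log2 fold changes were 1.29 for NDB1, 0.59 for DIC1 and 0.83 for DIC2, and each still passed.

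The falls were small in the fit without length correction. PTOX (AT4G22260), the plastid terminal oxidase, fell by 0.36 on the log2 scale (adjusted p = 0.00575, edgeR), and this call was lost without se-1 replicate 2 (adjusted p = 0.0526, edgeR) and without wild type replicate 1 (0.0768). After length correction PTOX and UCP3 (AT1G14140) stood at -0.39 and -0.61 on the log2 scale (adjusted p = 0.0038 and 2.7e-05, edgeR). Without this correction UCP3 had a log2 fold change of -0.23 (adjusted p = 0.0465, edgeR). It did not pass without se-1 replicate 1 (0.126), se-1 replicate 2 (0.14) or wild type replicate 1 (0.398), with library size alone (0.0588), with no filter (0.0973), or with DESeq2 (0.163). NDC1 (AT5G08740) at -0.21 and UCP2 (AT5G58970) at -0.13 did not pass with all libraries. NDC1 passed without se-1 replicate 2 (adjusted p = 0.039, edgeR) and UCP2 without se-1 replicate 1 (0.0422), and UCP2 stood at 0.048 without se-1 replicate 2. Of the UCP2 exons 29.2% is shared with a gene on the opposite strand. DIC3 (AT5G09470), with no count in se-1 and 2 in wild type, was too low to test.

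The type II dehydrogenases as a whole, NDA1, NDA2, NDB1 to NDB4 and NDC1, summed to 97.3 ± 5.35 CPM per kb in se-1 and 40.7 ± 1.27 in wild type, a ratio of 2.39. NDB4 and NDB1 made up 43.3% ± 2.48 and 36.9% ± 2.96 of the se-1 sum, against 0.591% ± 0.0591 and 46.0% ± 1.32 of the wild-type sum. The uncoupling proteins UCP1, UCP2 and UCP3 summed to 129 ± 10.8 in se-1 and 127 ± 3.39 CPM per kb in wild type, with a ratio of 1.01.

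Nuclear genes of the main respiratory chain were mostly higher in se-1. Of 80 listed subunit genes of complexes I to V and cytochrome c, 79 were tested. Of these 61 (77.2%) rose, 11 (13.9%) fell and 7 did not pass, against 36.2% higher and 36% lower over all tested genes (edgeR). Their median log2 fold change was 0.79, beside 0.004 for all. They are short, with a median exon length of 1182.5 nt, and length correction left 48 (60.8%) higher and 13 lower and a median of 0.43, in a fit where 66.9% of 18529 genes changed, 35% higher and 31.8% lower. Their CPM summed to 12500 ± 245 in se-1 against 8448 ± 41.5 in wild type, a ratio of 1.48.

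**Figure D4:**
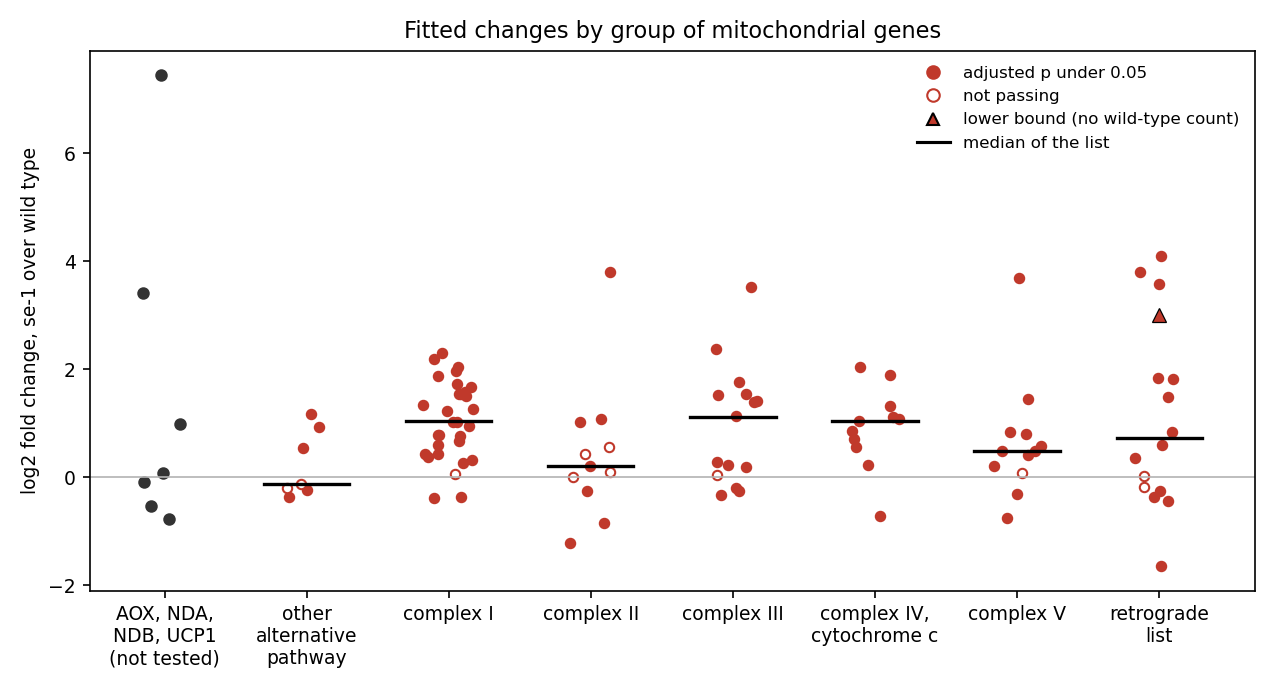
Fitted log2 fold change of se-1 over wild type for the tested genes of each list; red filled points passed at an adjusted p under 0.05, open points did not, bars are list medians, and the triangle is a lower bound for HSP23.6. The black points are the 7 fitted members, which were not tested; NDB4 lies above every other point, and complexes I, III and IV have medians of 1.03, 1.12 and 1.03.

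In complex I, which takes electrons from NADH as the type II dehydrogenases do, 27 of 30 subunit genes rose and 2 fell (median log2 fold change 1.03, or 0.69 after length correction with 24 higher and 3 lower). The counts of each complex stand beside 36.2% higher and 36% lower over all tested genes, or 35% and 31.8% after length correction (edgeR). B8 (AT5G47890) rose 4.90-fold to 105 ± 3.43 CPM and B22 (AT4G34700) 4.56-fold to 374 ± 5.76 CPM (adjusted p = 1.1e-13 and 1.3e-13, edgeR), or 3.17-fold and 3.18-fold after length correction. The falls were those of the B16.6 copy AT1G04630 and of the 75 kDa subunit gene EMB1467 (AT5G37510), by 0.39 and 0.37 on the log2 scale. In the length-corrected fit AT1G04630 stood at -1.20 on the log2 scale, and EMB1467 did not pass (adjusted p = 0.819, edgeR).

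Complex II, succinate dehydrogenase, was mixed, with 4 of 11 genes higher and 3 lower (median 0.20, or 0.01 after length correction). These are 36.4% and 27.3%, and the higher share lies near the 36.2% of all tested genes. Over all tested genes 36% were lower (edgeR). SDH8 (AT2G46390), a plant-specific subunit, rose 13.9-fold from 7.08 ± 1.75 to 98.4 ± 2.24 CPM (adjusted p = 8.6e-15, edgeR; log2 fold change 2.78 after length correction), and SDH6 (AT1G08480) rose by 1.08 on the log2 scale, or by 0.43 in the length-corrected fit. SDH2-2 (AT5G40650), an iron-sulfur subunit gene, was 2.32-fold lower (adjusted p = 1.4e-09, edgeR), and SDH1-2 (AT2G18450) 1.79-fold lower at under 4 CPM in every library. Of the exon length, 19.1% of SDH2-2 and 9.2% of SDH8 is shared with a gene on the opposite strand.

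In complex III 11 of 15 genes rose and 3 fell (median 1.12, or 0.28 after length correction with 8 higher and 2 lower). Both copies of QCR8, a small membrane subunit, rose, AT3G10860 11.5-fold to 260 ± 6.05 CPM and AT5G05370 5.17-fold to 148 ± 2.15 CPM (adjusted p = 7.6e-16 and 5.7e-14, edgeR), or 7.03-fold and 2.50-fold after length correction. Genes on the opposite strand share 25.2% (AT3G10850) and 12.3% (AT3G10870) of the exon length of AT3G10860. For AT5G05370 the share is 13.9%, and the strand setting of the counting is not given. The processing peptidase subunit gene AT1G51980 and the cytochrome c1 gene AT3G27240 fell by 0.33 and 0.26 on the log2 scale. Complex IV with cytochrome c had 10 of 11 genes higher and 1 lower (median 1.03, or 0.50 after length correction with 7 higher and 2 lower). The COX5C genes AT3G62400 and AT2G47380 rose 3.71-fold and 2.48-fold, or 1.98-fold and 1.62-fold after length correction. COX5B-1 (AT3G15640) was 1.65-fold lower (adjusted p = 1.8e-07, edgeR), with a log2 fold change of -0.72, or -1.06 after length correction.

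In complex V 9 of 12 genes rose and 2 fell (median 0.48, or 0.18 after length correction with 5 higher and 3 lower). After length correction the higher genes were 41.7%, near the 35% of all genes in that fit. The epsilon subunit gene AT1G51650 rose 12.9-fold from 32.4 ± 3.40 to 418 ± 26.5 CPM (adjusted p = 9.5e-16, edgeR; log2 fold change 2.93 after length correction), and the d subunit gene AT3G52300 rose 2.71-fold. The 3 beta subunit copies differed in direction. AT5G08670 and AT5G08690 were lower by 0.75 and 0.32 on the log2 scale, and AT5G08680 rose from 341 ± 14.6 to 477 ± 5.93 CPM (log2 fold change 0.48, adjusted p = 3.3e-05, edgeR). How many reads these related copies share was not measured, so the split between them is uncertain.

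AOX1A and NDB2 are known targets of the retrograde response from mitochondria to the nucleus. In a list of 18 of its regulators and targets without these members, 10 of 16 tested genes rose and 4 fell, beside 36.2% higher and 36% lower over all tested genes (edgeR). The median log2 fold change was 0.72. After length correction 9 were higher and 3 lower, beside 35% and 31.8% over all, and without se-1 replicate 1 only 2 were lower. The targets HSP23.5 (AT5G51440), AT12CYS-2 (AT5G09570) and UPOX (AT2G21640) rose 17.0-fold, 13.9-fold and 11.9-fold (adjusted p = 1.8e-14, 7.6e-16 and 1.1e-10, edgeR), or 12.7-fold, 8.92-fold and 6.73-fold after length correction. The regulator ANAC013 (AT1G32870) rose 2.81-fold (adjusted p = 3.3e-11, edgeR). The 4 that fell are transcription factor genes. WRKY40 (AT1G80840) was 3.13-fold lower, at 0.516 ± 0.255 against 1.602 ± 0.268 CPM, and ABI4 (AT2G40220), ANAC016 (AT1G34180) and ANAC017 (AT1G34190) had log2 fold changes of -0.37, -0.44 and -0.27. ANAC016 and ANAC017 did not pass in the length-corrected fit (adjusted p = 0.0728 and 0.749, edgeR), where WRKY63 (AT1G66600) was lower by 0.70 on the log2 scale (adjusted p = 0.0317, edgeR). UGT74E2 (AT1G05680) and SOT12 (AT2G03760) of the list were too low to test, with 0 and 5 counts in se-1 against 7 and 7 in wild type. HSP23.6 (AT4G25200), without a count in wild type, had 25 counts in se-1, at least 8.03-fold higher with 3 counts summed over the wild-type libraries as the bound.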

How the data were processed

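The authors deposited raw counts, whole numbers of reads per gene with no normalization, for each library. Tools listed in the submitters' processing notes are HISAT2 2.0.5, featureCounts, FastQC 0.11.5 and Cufflinks 2.2.1, with the build TAIR10 and no roles. Not given in the sources used here are the annotation release, strand setting and handling of multiply mapped reads. Names, exon lengths (union of annotated exons) and sequences came from RefSeq TAIR10.1, and the tables hold no coordinates.

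Counts were fitted over the whole table with edgeR 4.0.16 in R 4.3.3: filterByExpr, TMM, two-sided quasi-likelihood test between the genotypes, Benjamini-Hochberg adjustment at 0.05. The standard error is the absolute log2 fold change over the square root of F. Length correction put a spline of log2 fold change on log2 length, with 5 degrees of freedom, into the offsets. Count ratios have exact 95% intervals on scaled totals, and reads without molecular identifiers make them cover counting error only. The fit was tested on simulated data.

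The members and lists were chosen with earlier results of these data known. Named were all members and other alternative pathway genes, from each complex the 2 smallest adjusted p in each direction, the 4 retrograde genes of smallest adjusted p, and the 3 genes of at least 5 CPM nearest NDB4 in pattern. Other genes were named after their values were seen. These were HSP23.6, the falling or untested retrograde genes, the ATP synthase beta copy AT5G08680 and the embryo, endosperm and seed coat markers. Alternatives were length correction, a replicate block, leaving out each library, DESeq2 1.42.0 as test or for size factors, library size without TMM, and other low-count filters (none, or 1 CPM in 2 libraries).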

Additional observations from a re-analysis of the deposited data

How the results depend on the processing

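Over the 7 alternatives that keep every library, the genes changed over the whole table numbered 11443 (DESeq2 test) to 13683 (replicate block), against 13523, and the respiratory subunit genes 48 to 61 higher and 10 to 13 lower. Members with a fitted difference of at least 2-fold numbered 4 with no filter, which fits the low members too, 3 with length correction and 2 to 4 with each library left out in turn, against 2. NDA1, at 1.98-fold, lies at this limit. Lower genes among the other alternative pathway genes numbered 1 with library size alone, 1 with no filter, 1 with the DESeq2 test and 0 to 2 with each library left out, against 2. The count of 0 came without wild type replicate 1 (edgeR, 0 at an unadjusted p under 0.05). Lower retrograde genes numbered 2 to 4 with each library left out. The sign turned for NDB2 (0.185 with length correction, -0.233 to 0.053 with each library left out), UCP1 (-0.098 with length correction, -0.009 to 0.169 with each library left out) and UCP2 (-0.311 to 0.048 with each library left out); the cause was not tested. The log2 fold change of AOX1C was -0.72 with length correction. AOX1C could not be fitted with the 1 CPM filter. NDB4 kept 7.33 to 7.56 and AOX1A 3.29 to 3.53 on the log2 scale over all alternatives run. Same-numbered libraries did not deviate together (r = 0.0263 over 18714 genes). No pairing by number was seen, but the labels do not say whether such libraries were prepared together. The replicate block gave 13683 changed genes and lost no call of a gene named by rule. Low counts of AOX1B, AOX1C, AOX1D and NDB3 limit what can be seen of them.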
